A study of Mus musculus with 12 samples.

Results

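The 31 genes described here encode enzymes of cholesterol and fatty acid synthesis and the proteins that set their transcription. They were chosen by name, as genes of sterol and lipid synthesis under the control of the sterol regulatory element-binding proteins (SREBPs), and all 31 were found among the 52550 features of the deposited count table. All 31 also passed the filter on low counts, which left 14990 genes. The RNA came from translating ribosome affinity purification (TRAP), in which tagged ribosomes of 1 cell type are pulled out of a tissue homogenate and the RNA bound to them is sequenced. The mice carried the Aldh1l1-TRAP transgene, whose tag is driven by the promoter of the astrocyte gene Aldh1l1, and anti-eGFP beads were used on sections of somatosensory cortex. The genotypes were compared at postnatal day 40 on an FVB/C57 strain background: Fmr1−/y, which lacks the RNA-binding protein FMRP in every cell and not in astrocytes alone, and Fmr1+/y, called wild type below. No treatment is named. Knockout libraries 14, 16 and 18 and wild-type libraries 13, 15 and 17 were analysed, 3 per genotype. No label ties a library to an animal of its own, so the tests rest on the spread between libraries, which may be technical.

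Cholesterol is built from acetyl-CoA by way of mevalonate, isoprenoid units and squalene, whose ring closure gives the first sterol. When sterols in the endoplasmic reticulum are scarce, the escort protein SCAP carries the SREBPs to the Golgi, where they are cut and released to act on the promoters of these genes, whereas the INSIG proteins hold SCAP back when sterols are plentiful. SREBP2 acts mainly on sterol genes and SREBP1 mainly on fatty acid genes. The adult brain makes its own cholesterol because lipoproteins of the blood do not cross the blood-brain barrier, and astrocytes are held to supply much of it to neurons.

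Promoters are shown for 3 members: Hmgcs1, whose libraries did not overlap between genotypes, and Insig1 and Cyp51, which varied widely between libraries of 1 genotype. Each run holds the 250 bases before the annotated start of the gene, from RefSeq on GRCm38.p6, which has the coordinates of mm10. Capitals mark matches, on either strand, to 4 motifs: the sterol regulatory element core TCACNCCAC, the E-box CACGTG, the NF-Y box CCAAT and the Sp1 box GGGCGG.
Hmgcs1 (chr13:119690101-119690350, plus strand): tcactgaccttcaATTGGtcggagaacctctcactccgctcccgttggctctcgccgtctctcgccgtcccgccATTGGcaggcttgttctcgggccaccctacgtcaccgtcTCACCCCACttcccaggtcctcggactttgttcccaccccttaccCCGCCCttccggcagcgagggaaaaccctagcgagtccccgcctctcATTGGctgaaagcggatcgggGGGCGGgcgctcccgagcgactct
Insig1 (chr5:28071162-28071411, plus strand): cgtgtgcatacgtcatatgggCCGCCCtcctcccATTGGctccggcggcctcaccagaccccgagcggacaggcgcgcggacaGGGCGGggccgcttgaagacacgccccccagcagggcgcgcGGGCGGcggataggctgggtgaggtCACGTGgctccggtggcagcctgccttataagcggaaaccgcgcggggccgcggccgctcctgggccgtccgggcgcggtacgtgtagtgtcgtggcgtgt
Cyp51 (chr5:4104698-4104947, minus strand): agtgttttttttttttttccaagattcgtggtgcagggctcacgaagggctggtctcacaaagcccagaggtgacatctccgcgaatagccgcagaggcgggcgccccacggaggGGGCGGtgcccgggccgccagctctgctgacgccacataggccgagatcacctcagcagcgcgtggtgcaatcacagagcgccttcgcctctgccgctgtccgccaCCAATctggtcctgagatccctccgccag

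The Hmgcs1 window held the sterol element core once, from 137 to 129 bases before the start, with 3 NF-Y boxes and 2 Sp1 boxes. Insig1 held 1 E-box, 1 NF-Y box and 3 Sp1 boxes, and Cyp51 held 1 NF-Y box and 1 Sp1 box. A promoter was matched for 25 of the 31 members. The members without a matched promoter were Fdps, Fdft1, Sqle, Stard4, Scd1 and Scd2. Over all windows of a gene, the sterol element core was found in 1 of the 25 members and in 1.22% of all 27025 genes with a promoter. The E-box was found in 5 of the 25 and in 6.86% of all genes, the NF-Y box in 20 of the 25 and in 37.5%, and the Sp1 box in 21 of the 25 and in 35.4%. The 27025 genes include genes that did not pass the filter on low counts, whereas all members passed it. The 25 members had 33 windows, and neither expression nor windows per gene was matched, so the shares do not show enrichment particular to these genes. These matches describe letters in a short window and no binding was measured.

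Library totals ran from 10953958 to 22397202 counts. On 3 features known to collect reads of ribosomal RNA lay 35.6% and 45.1% of the counts of knockout libraries 14 and 16, against 0.892% to 7.45% in the other 4 libraries, which left 10146188 and 6012112 other counts in libraries 14 and 16 and at least 19601657 in each of the rest. Levels are in CPM (counts scaled by TMM to a common library size), and the values of a gene in single libraries follow the order knockout 14, 16 and 18, then wild type 13, 15 and 17. A member had between 91 counts (Hsd17b7 in library 16) and 50111 counts (Scd2 in library 13) in a library. Fmr1, the deleted gene, lay between 1.32 and 4.32 CPM in the knockout libraries and between 31.6 and 38.4 CPM in the wild-type libraries. Astrocyte markers were present in every library, and their 10 genes summed to between 15733 and 20500 CPM in the knockout and between 16109 and 21150 CPM in the wild type.

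None of the 31 members passed the test between genotypes. With edgeR (quasi-likelihood test, Benjamini-Hochberg adjustment over all genes, threshold 0.05), 0 of 31 members were called, and 0% of the 14990 genes. The deleted gene Fmr1 itself, at a log2 fold change of -3.53, reached an adjusted p of only 0.2998 in that edgeR fit, so the absence of calls over these 6 libraries does not show that levels were equal. The members' median log2 fold change of knockout over wild type was -0.02, with 17 members lower and 14 higher, and the median over all genes tested was -0.0019. DESeq2 likewise called 0 of the 31, against 0.0534% of all genes with an adjusted p, and limma voom called 0. In the authors' deposited table, 0.573% of 14843 features had an adjusted p under 0.05, and 0 of the 31 members were among them. Each library was deposited as 2 entries, and whether that table counted them as separate samples is not known. At an unadjusted p under 0.05 the quasi-likelihood test gave 1 member lower in the knockout (Hsd17b7), against 1.03% of all genes, and 0 members higher, against 0.734%. The 95% interval of the fold lay inside 2-fold in either direction for 30 of the 31 members, and for Hsd17b7 it reached down to 0.498. The highest upper bound of a fold was 1.80, for Scd1.

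**Figure D1:**
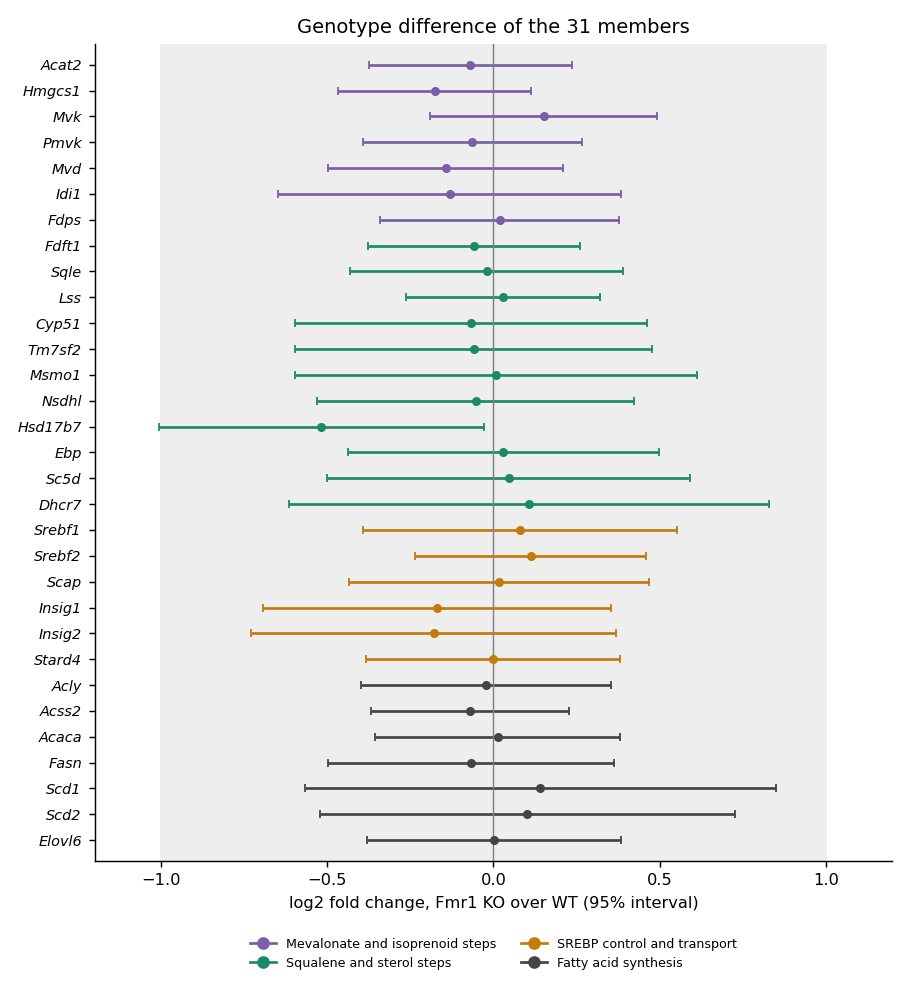
Log2 fold change of knockout over wild type (x axis) for each of the 31 members (rows, coloured by step). The 95% intervals are approximations computed from edgeR's quasi-likelihood F test over 6 libraries. The grey band spans 2-fold in either direction. Every interval but that of Hsd17b7 includes 0, and 30 of 31 lie within the band.

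Among the mevalonate and isoprenoid genes, Hmgcs1 was lower in every knockout library than in every wild-type library. Hmgcs1 (chromosome 13, 119690351 to 119708260) encodes the cytosolic HMG-CoA synthase that opens the mevalonate pathway. It measured 452, 433 and 414 CPM in the knockouts against 496, 461 and 511 CPM in the wild types. The genotypes did not overlap, but the gap between the highest knockout and the lowest wild-type library was small beside the spread within either genotype. Mean levels of Hmgcs1 were 433 ± 19.2 and 489 ± 25.6 CPM (SD, n = 3 each), a fold of 0.884 with a 95% interval from 0.723 to 1.08 (edgeR's adjusted p = 1). The exact permutation p (two-sided) of Hmgcs1 was 0.1, the lowest possible with 3 libraries per genotype. Such a complete separation downward was seen in 1 of 31 members and in 3.25% of all genes, and upward in 0 of 31 members and in 2.95% of all genes. Without knockout library 18, which leaves fewer libraries to overlap, 6 of 31 members were separated in either direction, against 16.9% of all genes in the same 5 libraries.

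The other 6 genes of this stretch showed no separation. They are Acat2, a cytosolic thiolase that supplies acetoacetyl-CoA, the kinases Mvk and Pmvk, the decarboxylase Mvd, the isomerase Idi1 and the farnesyl diphosphate synthase Fdps. All 7 together had log2 fold changes from -0.18 to 0.15, with 5 lower and 2 higher in the knockout and a median of -0.07. Within this group the level of Idi1 stood apart in 1 library. Idi1, and Fdps beside it, were named after the values were seen. Idi1 measured 141, 143 and 79.2 CPM in the knockouts against 127, 138 and 132 CPM in the wild types, so that knockout library 18 alone was low. No other mevalonate gene was low in that library to this degree. Fdps, the next enzyme, measured 106, 122 and 121 CPM in the knockouts against 128, 94.8 and 120.1 CPM in the wild types. Members of other steps, such as Insig1, Msmo1 and Sc5d, were also lowest in library 18.

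Of the 11 genes from squalene to cholesterol, 6 were lower and 5 higher in the knockout, with a median log2 fold change of -0.02. Fdft1, which makes squalene, measured from 186 to 201 CPM in the knockout and from 179 to 224 CPM in the wild type. Sqle (chromosome 15, 59315092 to 59331193), the squalene epoxidase that is a rate-setting step, measured 58.6, 69.4 and 50.8 CPM in the knockouts against 67.1, 65.4 and 48.6 CPM in the wild types. Its levels overlapped fully, with a low library in each genotype. The means of Sqle were 59.6 ± 9.37 and 60.4 ± 10.3 CPM (SD, n = 3 each), and its fold was 0.986 with a 95% interval from 0.741 to 1.31.

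Hsd17b7, the ketoreductase that works with the demethylation enzymes Msmo1 and Nsdhl, had the fold farthest from 1 of the 31 members. It measured 14.6, 12.8 and 15.2 CPM in the knockouts against 14.7, 22.4 and 24.1 CPM in the wild types. Wild-type library 13 lay among the knockout libraries, so the difference rested on wild-type libraries 15 and 17. The titles of the samples hold numbers that read as a month and a day, and within month 5 the knockout libraries 14 and 16 stood against wild-type library 13, while within month 6 knockout library 18 stood against the higher wild-type libraries 15 and 17. The means of Hsd17b7 were 14.2 ± 1.24 and 20.4 ± 4.98 CPM (SD, n = 3 each), a log2 fold change of -0.52 (SE 0.21). In edgeR its p was 0.0406 before adjustment and 1 after it, and the exact permutation p was 0.2. Leaving out 1 library moved the log2 fold change between -0.70 (without wild-type library 13) and -0.38 (without wild-type library 17). With the title month as a term in the edgeR fit the log2 fold change was -0.36 and the unadjusted p 0.0832, and with the ribosomal RNA share as a term they were -0.45 and 0.169. The unadjusted p was 0.0392 with DESeq2 and 0.0771 with limma voom. In the authors' deposited table Hsd17b7 had a log2 fold change of -0.51 and an adjusted p of 0.23, the smallest p of the members there. That table may have counted both entries of a library as samples.

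**Figure D2:**
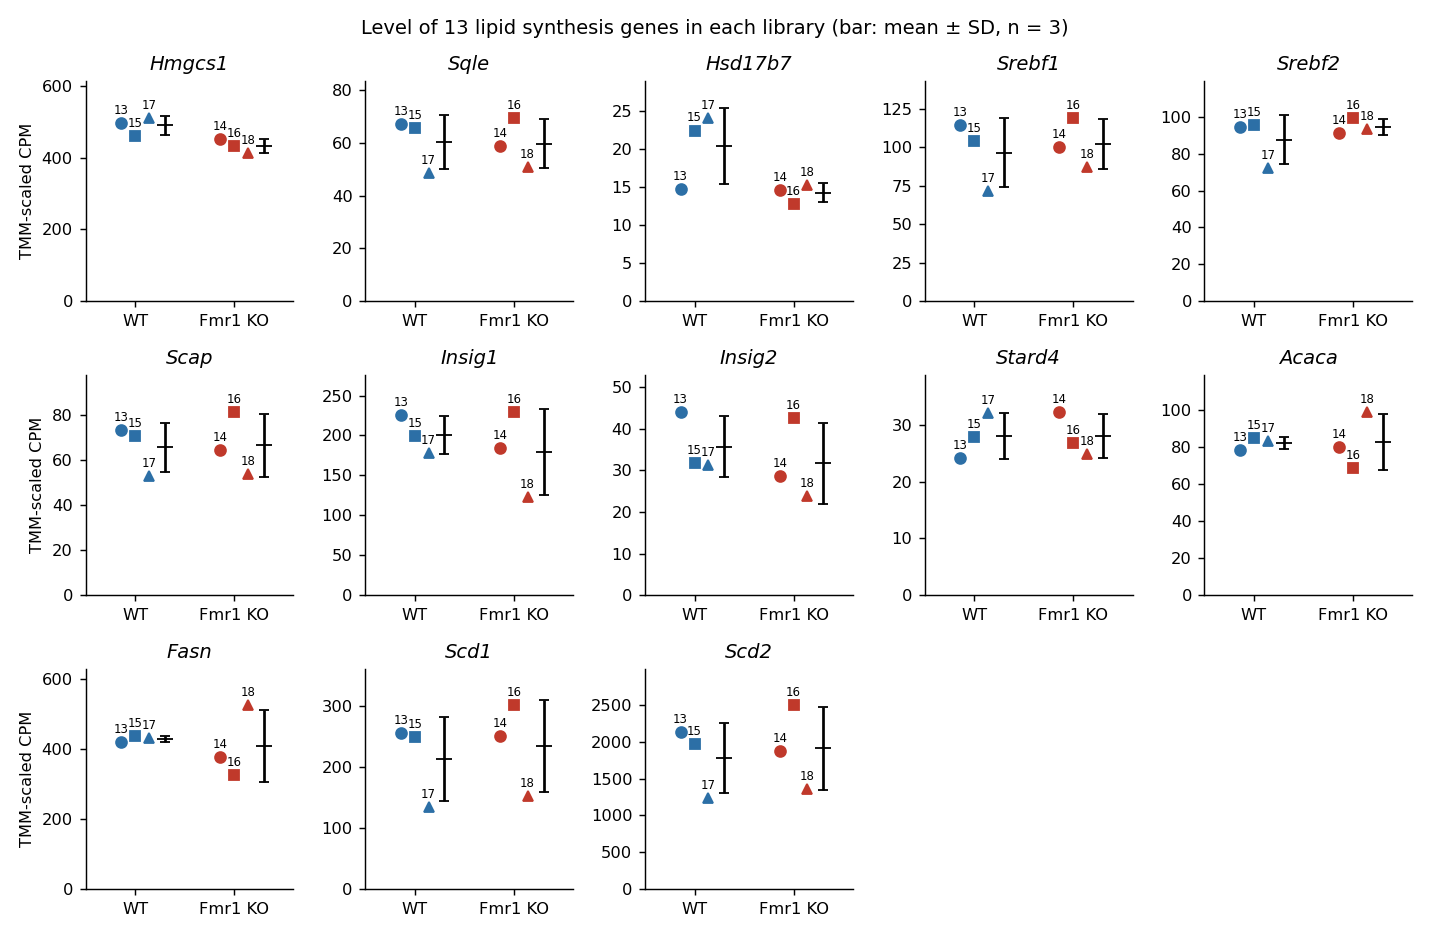
TMM-scaled CPM (y axis, from 0) of 13 members in each wild-type (blue) and Fmr1 knockout (red) library, labelled by library number, with the mean and SD of 3 libraries. Hmgcs1 does not overlap between genotypes, and in Sqle, Srebf1, Scap, Scd1 and Scd2 wild-type library 17 and knockout library 18 are the lowest of the 6.

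The regulators did not differ between genotypes beyond the spread between libraries. Srebf2, which encodes SREBP2, measured 91.0, 99.4 and 93.3 CPM in the knockouts against 94.6, 95.5 and 72.2 CPM in the wild types. All but wild-type library 17 lay close together. The means of Srebf2 were 94.6 ± 4.34 and 87.5 ± 13.2 CPM (SD, n = 3 each), with a fold of 1.08 and a 95% interval from 0.850 to 1.38. Srebf1, which encodes SREBP1, measured 100.2, 119 and 87.4 CPM in the knockouts against 115, 104 and 71.4 CPM in the wild types. The lowest library of Srebf1 was thus a wild-type library, and the highest was knockout library 16. The fold of Srebf1 was 1.06 with a 95% interval from 0.762 to 1.47. Scap, the escort of both factors, measured 64.7, 81.7 and 53.7 CPM in the knockouts against 73.3, 70.8 and 53.2 CPM in the wild types. Its lowest libraries, 1 of each genotype, were nearly equal, and its fold was 1.01 with a 95% interval from 0.740 to 1.38.

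The INSIG genes varied more. Insig1, itself a target of the SREBPs and so part of their feedback, measured 184, 229.95 and 123 CPM in the knockouts against 225, 199.7 and 178 CPM in the wild types. The knockout libraries of Insig1 spanned the whole range, and library 18 was the lowest of the 6. Its means were 179 ± 53.7 and 201 ± 23.6 CPM (SD, n = 3 each), with a fold of 0.889 and a 95% interval from 0.619 to 1.28. The log2 fold change of Insig1 was -0.17, and with the ribosomal RNA share as a term in edgeR's fit it was -0.67 (unadjusted p = 0.0117, adjusted p = 0.86). Leaving out libraries 14 and 16 gave -0.69 in edgeR's fit, the title month as a term gave -0.37, and leaving out library 18 gave 0.04. High ribosomal RNA shares lay only in knockout libraries 14 and 16. The fit with the share and the fit without these libraries both lean on knockout library 18 and are not separate checks. Insig2 measured 28.7, 42.7 and 23.8 CPM in the knockouts against 44.2, 31.7 and 31.2 CPM in the wild types. Library 18 was again the lowest, while library 16 lay with the highest wild-type library, and the fold of Insig2 was 0.883 with a 95% interval from 0.603 to 1.29. The log2 fold change of Insig2 was -0.18. It was -0.56 with the share as a term (adjusted p = 0.867 in edgeR) and also with libraries 14 and 16 left out. Stard4, a cytosolic carrier of cholesterol, measured 32.4, 26.9 and 24.9 CPM in the knockouts against 24.1, 27.9 and 32.1 CPM in the wild types. The genotypes covered the same range, and the fold was 0.999 with a 95% interval from 0.767 to 1.302. Over these 6 genes the median log2 fold change was 0.0074, with 3 higher and 3 lower.

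For the 7 fatty acid genes the median log2 fold change was 0.0009 (4 higher and 3 lower in the knockout), but they did not vary alike between libraries. Fasn (chromosome 11, 120805958 to 120825166), the fatty acid synthase, measured 376, 324 and 524 CPM in the knockouts against 418, 435 and 430.1 CPM in the wild types. Its wild-type libraries were nearly equal, and the knockout libraries lay on either side of them, with library 18 the highest. The means of Fasn were 408 ± 104 and 428 ± 8.91 CPM (SD, n = 3 each), with a fold of 0.954 and a 95% interval from 0.708 to 1.29. Acaca, the acetyl-CoA carboxylase that makes malonyl-CoA for it, measured 80.1, 68.7 and 99.0 CPM in the knockouts against 78.2, 84.96 and 83.0 CPM in the wild types. Library 18 was again the highest and library 16 the lowest, and the fold of Acaca was 1.01 with a 95% interval from 0.782 to 1.301. Acly, which makes cytosolic acetyl-CoA from citrate, had the same order at its ends, with 138 CPM in knockout library 16 and 200.2 CPM in knockout library 18. Acss2, which makes acetyl-CoA from acetate, stayed between 97.4 and 114 CPM, and the elongase Elovl6 between 17.9 and 23.2 CPM.

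The desaturases Scd1 and Scd2, which both lie on chromosome 19 (44394450 to 44407709 and 44293676 to 44306864) and place a double bond in saturated fatty acids, ran opposite to Fasn in library 18. Scd2 measured 1881, 2499 and 1362 CPM in the knockouts against 2134, 1979 and 1235.5 CPM in the wild types. Scd1 measured 252, 302 and 153 CPM in the knockouts against 256, 250.3 and 134 CPM in the wild types. Both genes were lowest in wild-type library 17, next lowest in knockout library 18 and highest in knockout library 16. Their folds between genotypes were 1.07 for Scd2 (95% interval 0.697 to 1.65) and 1.10 for Scd1 (95% interval 0.675 to 1.80). While each gene changed by 2.02-fold (Scd2) and 2.25-fold (Scd1) between its lowest and highest library, the ratio of Scd2 counts to Scd1 counts stayed between 7.47 and 9.21. The 2 genes are paralogs, and how reads that match both were shared between them is set by the estimation of counts.

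The members also varied between libraries of 1 genotype. Among the 3 knockout libraries the ratio of the highest to the lowest had a median of 1.37 over the members (1.08 in Fdft1 to 2.04 in Msmo1), and among the 3 wild-type libraries 1.32 (1.04 in Fasn to 2.44 in Dhcr7), against 1.3 and 1.27 over the 8825 genes with a mean log2 level at or above that of the lowest member. Over all 6 libraries the ratio ran from 1.17-fold in Acss2 to 2.45-fold in Dhcr7, with a median of 1.54-fold over the 31 members, against 1.44-fold over those 8825 genes. In 12 of the 31 members wild-type library 17 and knockout library 18 were the 2 lowest of the 6, against 16% of all 14990 genes. These 12 were Sqle, Cyp51, Tm7sf2, Msmo1, Nsdhl, Sc5d and Dhcr7 of the sterol steps, Insig1, Srebf1 and Scap of the regulators, and Scd1 and Scd2. They include 7 of the 11 sterol genes, 3 of the 6 regulators and 0 of the 7 mevalonate genes. In 0 members these libraries were the 2 highest, against 14.4% of all genes. The pair of libraries was chosen after its values were seen, and it holds 1 library of each genotype. Read as dates, the title numbers of libraries 18 (month 6, day 14) and 17 (month 6, day 19) are later than those of every other library. The labels do not say what was done on these dates. An effect of date or order cannot be told apart from other differences of this pair, and it was not tested.

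**Figure D3:**
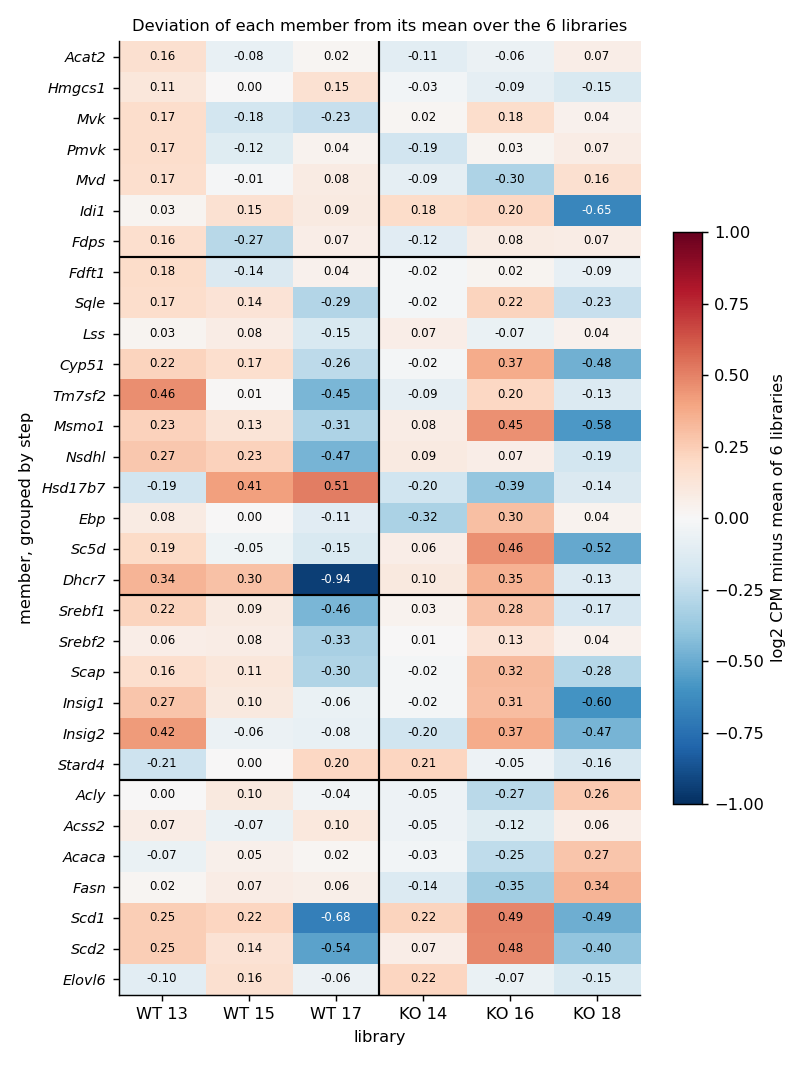
Log2 CPM of each member minus its mean over the 6 libraries (colour and number), with members in rows grouped by step and libraries in columns. Blue cells gather in wild-type library 17 and knockout library 18 among the sterol genes, the regulators and the Scd genes, whereas Fasn, Acaca and Acly are highest in knockout library 18.

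Dhcr7, Msmo1 and Cyp51, named after their values were seen, show how the lowest libraries differ among sterol genes. Dhcr7, which makes cholesterol in the last step of its branch, measured 46.7, 55.5 and 39.7 CPM in the knockouts against 55.2, 53.6 and 22.7 CPM in the wild types, so that library 17 stood alone at the low end. Msmo1, a C4-methyl sterol oxidase, measured 139, 180.2 and 88.2 CPM in the knockouts against 154, 144 and 106 CPM in the wild types, with library 18 the lowest. Cyp51, the lanosterol demethylase, had the same order, with 52.5 CPM in knockout library 18 and 94.5 CPM in knockout library 16. Lss, which closes the rings of squalene epoxide, spread little, between 37.1 and 43.5 CPM. Ebp, a sterol isomerase, ran from 9.30 to 14.4 CPM.

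Most of the astrocyte markers moved with this pattern. Relative to the mean of the 6 libraries, the median log2 level of the 10 astrocyte markers was -0.33 in wild-type library 17 and -0.35 in knockout library 18, against 0.28 and 0.09 in wild-type libraries 13 and 15 and 0.10 and 0.25 in knockout libraries 14 and 16. The median of the 11 sterol genes was -0.26 and -0.14 in libraries 17 and 18, 0.19 and 0.12 in libraries 13 and 15, and -0.02 and 0.22 in libraries 14 and 16. For the 6 regulators the values were -0.19 and -0.23 in libraries 17 and 18, 0.19 and 0.08 in libraries 13 and 15, and -0.0044 and 0.29 in libraries 14 and 16. The 7 mevalonate genes instead measured 0.07 in each of libraries 17 and 18, and the 7 fatty acid genes -0.04 and 0.06. In 7 of the 10 astrocyte markers libraries 17 and 18 were the 2 lowest, against 16% of all genes. Among them were the water channel gene Aqp4 and the glutamate transporter genes Slc1a3 and Slc1a2. Aldh1l1, whose promoter drives the tag, did not show this order and stayed between 380 and 453 CPM. Nor did Gfap (1886 to 2690 CPM) or Aldoc (6590 to 7684 CPM).

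Oligodendrocyte and neuron markers ran the other way. The 10 oligodendrocyte markers summed to 922, 619 and 1399 CPM in the knockouts against 669.96, 871 and 1174 CPM in the wild types, and in 8 of the 10 libraries 17 and 18 were the 2 highest. The 10 neuron markers summed to between 1845 and 2379 CPM in the knockout and between 1388 and 2343 CPM in the wild type, with libraries 17 and 18 the 2 highest in 6 of 10. These libraries were the 2 highest in 14.4% of all genes. All 10 markers of each list passed the filter and none was at 0 in every library. The 7 markers of oligodendrocyte precursors summed to between 212 and 251 CPM in the knockout and between 178 and 201.5 CPM in the wild type, without overlap. Such a separation upward was seen in 2.95% of all genes, and 0 of the 7 markers had an unadjusted p under 0.05 in edgeR. Olig1 (114.5 to 182 CPM) and Olig2 carried most of that sum, and Pdgfra, Cacng4 and Gpr17 had fitted values below 0, at log2 fold changes of -0.12, -0.15 and -0.03. The 10 microglia markers summed to at most 75.9 CPM, and the endothelial and the mural and fibroblast markers, of which 7 of 8 passed in each list, to at most 200.2 and 59.7 CPM. Slco1c1, which astrocytes also express, held most of the endothelial sum, and of the defining endothelial genes Cldn5 stayed at or below 2.94 CPM and Pecam1 at or below 1.13 CPM. The part of these cell types in the members' levels was not tested. In RNA of a whole pull-down, the number of cells of a type and the ribosome-bound RNA per cell cannot be told apart. Nor can either be told apart from the amount of RNA carried along from cells without the tag.

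**Figure D4:**
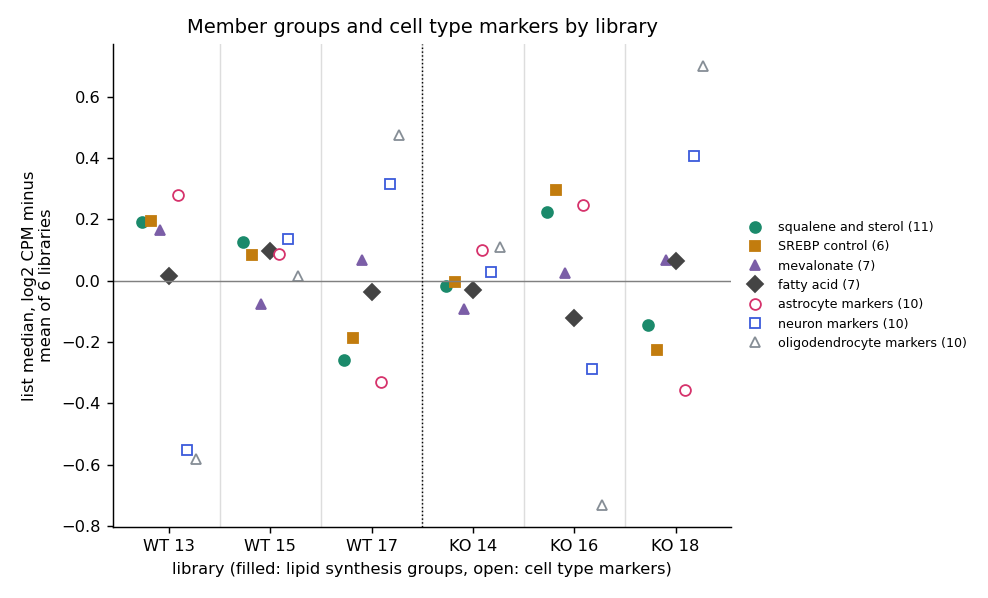
Median log2 CPM minus the mean of the 6 libraries (y axis) for the 4 groups of lipid synthesis genes (filled) and the astrocyte, neuron and oligodendrocyte markers (open), by library (x axis). In wild-type library 17 and knockout library 18 the sterol genes, the regulators and the astrocyte markers lie below 0 and the neuron and oligodendrocyte markers above it.

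The genotype differences were also taken within the months read from the sample titles. Among month 5 libraries (knockout 14 and 16, wild type 13) the median log2 difference of knockout minus wild type was -0.09 over the 31 members, and among month 6 libraries (knockout 18, wild type 15 and 17) it was -0.03. For the sterol genes the values were -0.09 and -0.07 in months 5 and 6, for the regulators -0.04 and -0.23, for the mevalonate genes -0.18 and 0.11, and for the fatty acid genes -0.08 and 0.05. At least 1 arm of each month holds a single library, so these are values without a test.

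Of 28 further genes of lipid synthesis, uptake, transport, esterification and their regulation, 27 passed the filter, and 14 were higher and 13 lower in the knockout. In edgeR's fit 0 of the 27 had an unadjusted p under 0.05 and 0 were called after adjustment, and their median log2 fold change was 0.0086. Wild-type library 17 and knockout library 18, a pair chosen after its values were seen, were the 2 lowest in 14 of the 27. The share over all genes was 16%. The widest of the 14 was Elovl5, an elongase of polyunsaturated fatty acids, at 299, 339.6 and 155 CPM in the knockouts against 325, 321 and 131 CPM in the wild types. Soat1, which esterifies cholesterol, measured 92.9, 111 and 53.5 CPM in the knockouts against 107, 88.9 and 56.1 CPM in the wild types. The desaturases Fads1 and Fads2 were also highest in knockout library 16, with Fads1 at 311 CPM in wild-type library 17 and 630.0 CPM in knockout library 16. Aacs, the acetoacetyl-CoA synthetase that feeds ketone bodies into lipid synthesis, was highest in libraries 18 and 17, at 54.8 and 53.0 CPM, and lowest in knockout library 16, at 29.0 CPM. Elovl5, Soat1, Fads1 and Aacs were named after their values were seen.

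In the RefSeq annotation, which may differ from the one used for the counts, 14 members overlap another gene. Of these, 5 share between 3213 and 19116 bases of their span with a partner. They are Acaca with Gm11437, Acss2 with Acss2os, Insig1 with Gm35223, Lss with 4930483K19Rik and Mvd with Gm51557. The other overlaps were shorter, such as 774 bases of Fdft1 with Ctsb. These overlaps are of whole gene spans, introns included, and overlap of exons was not examined. Libraries were made with a stranded kit, but no source used here gives the strand setting of the counting. Whether reads of such partners were counted for the member is therefore not known.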

How the data were processed

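Astrocyte TRAP RNA was read in 6 libraries, 3 Fmr1 knockout and 3 wild type. The authors deposited RSEM expected counts per gene, unscaled, per the file headers, and a table of log2 fold changes, p-values and a scaled signal per entry. The submitters' processing notes list STAR 2.5.3a, RSEM 1.3.0, edgeR and mm10. No source used here gives the annotation release, the strand setting or the authors' test. Each library was deposited as 2 entries, whose median chi-square per feature was 0.467 to 0.494 within libraries, against 2.93 to 18.8 between libraries of a genotype. The 2 entries were summed, rounded and counted as 1 sample.

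Genes were filtered with filterByExpr on genotype, scaled by TMM and tested across all genes with edgeR's quasi-likelihood test (edgeR 4.0.16, limma 3.58.1, R 4.3.3; 8.24 total degrees of freedom), p adjusted by Benjamini-Hochberg, threshold 0.05. DESeq2 1.42.0 was an alternative. Log2 levels used a prior count of 2. Values are mean ± SD over libraries. The members and lists were chosen with earlier results of these data known, so lists are described by counts and medians. Levels in every library are given for the regulators, for Hmgcs1, Sqle, Acaca, Fasn, Scd1 and Scd2, and for any member without overlap or with an unadjusted p under 0.05. What limited the precision of single members was not tested.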

Additional observations from a re-analysis of the deposited data

How the results depend on the processing

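Over 15 alternatives, 0 members were called in any, and the lowest adjusted p of the 13 members followed was 0.86. Hmgcs1 and Hsd17b7 stayed lower in the knockout in all 15, and of 195 member values 153 kept their direction. All 15 reuse the same libraries, and Hsd17b7 was followed because of its unadjusted p in these data. Hmgcs1 did not overlap between genotypes, so leaving out libraries could hardly turn its direction. Their constancy is therefore no separate evidence of a difference. The medians of the 5 groups moved by less than the spread between libraries in 73 of 75 values, but with a covariate for the ribosomal RNA share that of all members was -0.15, that of the sterol genes -0.22 and that of the regulators -0.22. Fits with a covariate on 6 libraries and fits without libraries leave few degrees of freedom, and without knockout libraries 14 and 16 the lone knockout library is assumed to vary like the others. High ribosomal RNA shares lay only in knockout libraries 14 and 16. The fit with that share and the fit without these libraries are therefore not separate checks. The cause of each change below was not tested.

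Genes called over all genes numbered 6 with no filter on low counts, 8 with DESeq2, 1 with a covariate for the ribosomal RNA share, 2 with the astrocyte marker level as a covariate (chosen after seeing the data) and 0 to 2 when 1 library was left out. Leaving out 1 library moved the median of the fatty acid genes between -0.12 (without knockout library 18) and 0.047, and the count of members without overlap between 1 and 6 (6 without knockout library 18, when 16.9% of all genes did not overlap, and 12.6% to 18.1% over the 6 omissions). Without knockout libraries 14 and 16 the median of the mevalonate genes was 0.059 and 12 members did not overlap, against 50.7% of all genes.

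Stard4, at almost no difference, turned to 0.00603 with RLE scaling, 0.0053 with DESeq2, 0.011 with the title month as a covariate and 0.00028 with the astrocyte marker level as a covariate. Scap turned to -0.0092 with limma voom, and Acaca to -0.0091 with the astrocyte marker level. With the title month as a covariate the log2 fold change turned to -0.034 for Srebf1, -0.11 for Scap, 0.0102 for Fasn, -0.11 for Scd1 and -0.10 for Scd2. With a covariate for the ribosomal RNA share it turned to -0.15 for Srebf1, -0.29 for Scap, 0.25 for Fasn, -0.44 for Scd1 and -0.37 for Scd2. Without knockout libraries 14 and 16 it turned to -0.12 for Srebf1, -0.27 for Scap, 0.32 for Fasn, -0.45 for Scd1 and -0.36 for Scd2.

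With 1 library left out at a time, the log2 fold change ran from -0.098 to 0.22 for Srebf1, from -0.0086 to 0.19 for Srebf2, from -0.15 to 0.15 for Scap, from -0.39 to 0.042 for Insig1, from -0.44 to 0.0014 for Insig2 and from -0.12 to 0.11 for Stard4. It ran from -0.16 to 0.084 for Sqle, from -0.14 to 0.13 for Acaca, from -0.29 to 0.072 for Fasn, from -0.11 to 0.38 for Scd1 and from -0.14 to 0.30 for Scd2. No paired analysis was made because no label pairs a knockout library with a wild-type library.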
